A study of Mus musculus with 6 samples.

Results

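The 39 genes described here encode the proteins that copy DNA in S phase of the cell cycle: the factors that license origins, the MCM helicase, the DNA polymerases and primase, the sliding clamp with its loader and RPA, the enzymes that supply deoxynucleotides, the enzymes that join Okazaki fragments and the chaperones that place histones on new DNA. They were taken by gene symbol, older symbols included, or by the accession of the array probe, and all 39 were among the 18044 genes tested. RNA came from cultured neural stem cells of the subventricular zone, grown from lateral ventricle walls of mice aged 14 to 21 days, and each of 6 arrays held Dnmt3a-null (KO) RNA in one dye and wild-type (WT) RNA in the other. On 2 arrays the cells of both genotypes were differentiating: they had been replated for 2 days with mitogen and then kept for 3 days without it. On 4 arrays the cells of both genotypes were proliferating in serum-free medium with FGF-2 and EGF at 10 ng/ml each, after 2 to 3 passages. The labels give more than 95% Nestin and Sox2 positive cells for the starting cultures. They call the arrays biological replicates without naming the animals or cultures behind them, so the p-values measure the spread between these arrays, and they do not say how Dnmt3a, a DNA methyltransferase, was inactivated. KO RNA carried Cy3 on differentiating replicate 1 and proliferating replicates 2 and 4, and Cy5 on the other arrays.

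Replication begins when the origin recognition complex, Cdc6 and Cdt1 load the ring of Mcm2 to Mcm7 onto origins in G1. In S phase Cdc45 and Mcm10 help to turn the ring into an active helicase, polymerase alpha with primase starts each strand, and polymerases epsilon and delta extend it while held by the PCNA clamp. Most of these genes are transcribed from late G1 onward under E2F transcription factors, and cells that leave the cell cycle lower them together, which is why they serve as a sign of dividing cells in neural stem cell cultures.

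The start regions of these genes are shown first, since the genes moved together on the arrays. RefSeq promoter windows on build GRCm38.p6, from 250 bases before to 50 after an annotated start, were at hand for 34 of the 39 genes, and not for Gmnn, Mcm4, Prim2, Pole and Rfc2. They were searched on both strands for 4 forms of the E2F motif, TTTCCCGC, TTTGGCGC, TTTCGCGC and TTTGCCGC, and for the CCAAT box, CCAAT; matches to different forms may overlap. An E2F match lay in a window of 12 of the 34 genes (35.3%), against 704 of 27025 genes (2.6%) in the whole table. A CCAAT box lay in 21 of the 34 (61.8%), against 11096 of all genes (41.1%). A match describes these letters and is not a measured binding site. Mcm6, the helicase subunit whose KO over WT ratio was the highest of the 39 in differentiating cells, had matches at -110, -106 and -47 bases from its start. The 250 bases before that start (chr1:128359706-128359955, minus strand) read, with the E2F matches in capitals:
Mcm6: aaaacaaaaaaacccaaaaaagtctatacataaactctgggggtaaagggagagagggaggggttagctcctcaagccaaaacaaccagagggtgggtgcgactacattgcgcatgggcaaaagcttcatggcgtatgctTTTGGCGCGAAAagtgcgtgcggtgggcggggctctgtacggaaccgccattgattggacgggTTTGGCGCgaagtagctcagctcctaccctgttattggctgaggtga

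Asf1b, a histone chaperone gene that also stood higher in KO differentiating cells, held no E2F match but 4 CCAAT boxes. Its 250 bases before the start (chr8:83955444-83955693, plus strand) read, with the CCAAT boxes in capitals, all of them in the orientation ATTGG:
Asf1b: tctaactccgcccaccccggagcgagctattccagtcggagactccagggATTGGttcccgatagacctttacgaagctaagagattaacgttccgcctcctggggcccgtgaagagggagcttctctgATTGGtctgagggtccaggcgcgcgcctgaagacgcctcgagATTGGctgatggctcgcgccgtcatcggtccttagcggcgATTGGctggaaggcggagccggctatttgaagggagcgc

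E2F matches of 5 other genes, picked from those that passed at least 1 test below, are set out with the bases around them, 5′ to 3′ on the gene's strand, again with the matches in capitals. Genes with a match that are not set out include Mcm3, which fell in WT cells, and Mcm7, which passed no test with all arrays. Mcm10, called higher in differentiating KO cells, had no E2F match. Whether a match goes with a change in signal was not tested. Counted from the annotated start as 1, the matches begin at 33 in Cdt1, -27 in Orc1, -153 in Mcm5, -138 in Pola1 and 11 in Pole2. The stretches lie at chr8:122568037-122568064 (Cdt1, plus strand), chr4:108579417-108579444 (Orc1, plus strand), chr8:75109346-75109373 (Mcm5, plus strand), chrX:93632276-93632303 (Pola1, minus strand) and chr12:69228163-69228190 (Pole2, minus strand).
Cdt1: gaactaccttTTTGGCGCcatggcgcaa
Orc1: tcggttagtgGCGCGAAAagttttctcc
Mcm5: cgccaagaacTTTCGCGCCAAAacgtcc
Pola1: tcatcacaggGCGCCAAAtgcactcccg
Pole2: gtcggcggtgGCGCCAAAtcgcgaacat

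**Figure D1:**
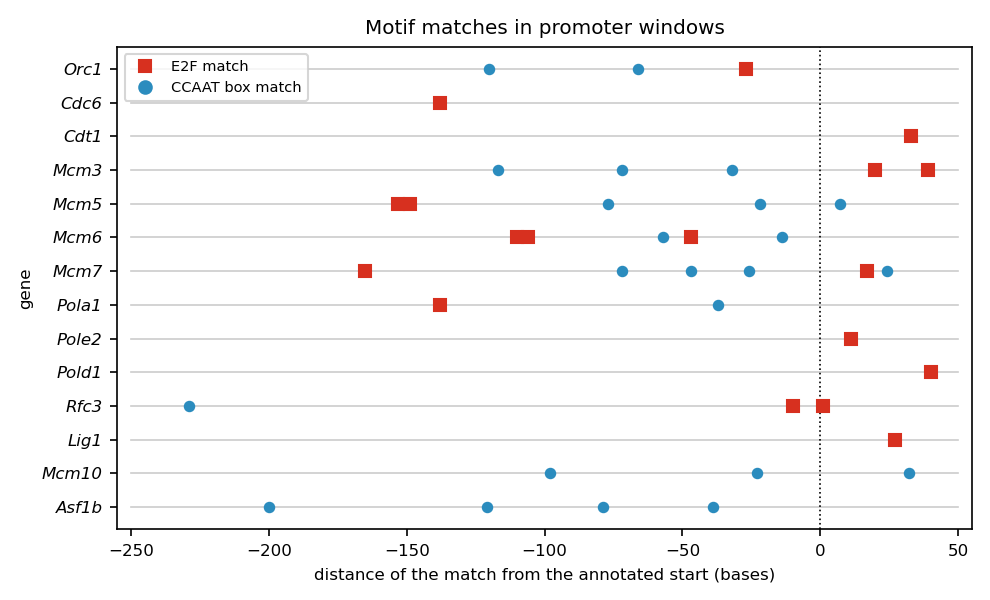
Positions of E2F (squares) and CCAAT box (circles) matches, in bases from the annotated start (dotted line), for the 12 genes with an E2F match and for Mcm10 and Asf1b. Mcm6 has 3 E2F matches before its start, Asf1b has 4 CCAAT boxes and no E2F match; matches of Mcm7 and Lig1 are pooled over the several windows of each gene.

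Of the gene spots, 52.3% to 59.1% were well above background per channel, and precision is limited by the number of arrays. The log2 KO over WT ratio at 3 Dnmt3a probes was below 0 on all 6 arrays, from -1.94 to -0.37, though the labels do not say whether the probed sequence was deleted. The brightest of these probes was still well above background in KO RNA on all 6 arrays, with ratios of -1.49 to -0.64. The probe with the ratio of -0.37 was not well above background in KO RNA on any array. Of 10 neural stem cell markers, 9 or 10 were well above background on all arrays of each group. Of 8 microglial markers, Aif1, Cx3cr1, Itgam, Csf1r and P2ry12 were not well above background in any group, nor were Pecam1, Cdh5, Cldn5 and Rgs5 of 8 endothelial and mural markers. On both differentiating arrays 2 of the microglial markers were well above background in each genotype, and 3 of the endothelial and mural ones in KO and 2 in WT RNA. Among these, Pdgfrb, a mural cell receptor, was 11.3-fold higher in differentiating than in proliferating KO cells (adjusted p = 0.000987) and 17.2-fold higher in WT cells (adjusted p = 0.000518), and was well above background on 2 of the 4 proliferating arrays in each. All 4 proliferating arrays lay on 1 slide with 1 scan and both differentiating arrays on another, so a difference between conditions and a difference between slides cannot be told apart. On proliferating replicates 3 and 4, Xist and Y-linked genes were unequal between the channels. The brightest Xist probe there had log2 signals of 11.30 and 11.09 in KO and 12.71 and 13.36 in WT RNA. On the other arrays it had 5.92 to 6.08. Eif2s3y, a Y-linked gene, had 10.39 and 11.10 in KO but 6.17 and 5.54 in WT RNA of replicates 3 and 4. Its signal on the other arrays was 10.59 to 11.62. The part of this difference between arrays in the results was not tested.

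Proliferating replicate 4 stood apart from proliferating replicates 1 to 3. All 39 replication genes had less signal on it than on any of replicates 1 to 3, in KO and in WT RNA alike, against 30.8% of all genes in KO and 31.9% in WT RNA. The median distance from the mean of replicates 1 to 3 was -2.03 in KO and -2.05 in WT RNA (log2), near the -2.27 in KO and -2.50 in WT of the differentiating arrays. Of 30 mitosis genes, 30 in KO and 29 in WT RNA were also lower there, with median distances of -1.29 in KO and -1.61 in WT, against -3.11 and -4.13 on the differentiating arrays. The replication genes of replicate 4 thus lay near the differentiating level, and its mitosis genes in between. The summed signal of 12 oligodendroglial markers in proliferating KO cells ran from 66636 to 154316 over the 4 arrays, and their median log2 signal was highest on replicate 4 in KO RNA, 12.65 against 10.40 to 11.83 on replicates 1 to 3. In WT RNA the median was likewise highest there, 10.15 against 8.70 to 9.58, while the sum was the lowest of the 4, 52671 against 57711 to 78721. The part of these cells in the result was not tested. Results are therefore given with and without replicate 4. It was singled out by the low signal of these same genes, so leaving it out enlarges their fall and narrows their spread. The falls without it describe the other arrays and are no separate support.

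**Figure D2:**
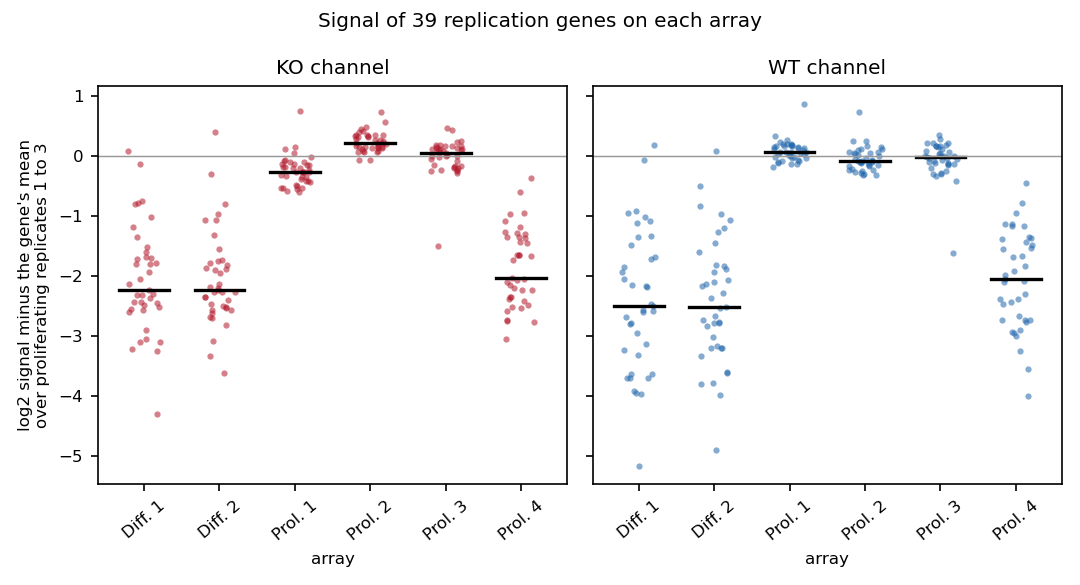
Each point is 1 of the 39 genes: its log2 signal on an array minus its own mean over proliferating replicates 1 to 3, in the KO channel (left) and the WT channel (right); black bars are medians. Proliferating replicate 4 sits near the differentiating arrays, with medians of -2.03 in KO and -2.05 in WT.

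The first comparison asks how the replication genes change when mitogen is withdrawn, within each genotype. In KO cells 38 of the 39 genes had less signal in differentiating than in proliferating cells, with a median log2 change of -1.68, and in WT cells the same number had less, with a median of -1.98; over all genes the median was 0.02 in each. In KO cells 10 fell, where 6.88% of all genes tested were called lower, and in WT cells 20 fell, where 6.54% were. Without proliferating replicate 4, 37 fell in KO cells (12.3% of all genes called lower) and 37 in WT cells (10.0%), with medians of -2.27 and -2.51. Replicate 4 was left out because these genes were low on it, so the larger counts follow in part from that choice. KO and WT RNA shared each array, so the falls in both genotypes are not independent of each other. Without replicate 4 the medians by role ran from -1.12 in KO and -1.13 in WT for the clamp, its loader and RPA to -2.73 in KO and -3.40 in WT for the histone chaperones, but single genes of different roles overlapped and the roles were not tested against each other. In these bulk samples, fewer cells in S phase and less RNA per cell cannot be told apart. With any of proliferating replicates 1 to 3 left out, 2 genes were called in each genotype, and with either differentiating array left out, 0 in KO cells and 0 or 2 in WT cells. The calls over all genes, in either direction, dropped in these settings too, to between 272 and 939 in KO cells, against 2763 with all arrays, and to between 206 and 1024 in WT cells, against 2700.

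Among the licensing genes, Gmnn, the geminin protein that binds Cdt1 and blocks relicensing, had the smallest p of the 39 in both genotypes. Its log2 signals in KO cells were 10.70 and 10.87 on the differentiating arrays, against 14.07, 14.10, 13.66 and 12.60 on proliferating replicates 1 to 4. In WT cells they were 10.27 and 10.18, against 14.04, 14.21, 13.64 and 12.45. The groups did not overlap in either genotype, and replicate 4 lay between the other arrays and the differentiating ones. Gmnn fell by 2.82 ± 0.41 in KO cells (log2, SE, limma, adjusted p = 0.00414) and by 3.36 ± 0.41 in WT cells (adjusted p = 0.00171).

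Cdt1, which brings the MCM ring to the origin, showed how much 1 array weighs. It had 9.68 and 9.60 in differentiating KO cells, against 11.62, 12.60, 12.24 and 9.40 in proliferating KO cells, and 8.45 and 8.88 in differentiating WT cells, against 11.89, 12.04, 12.29 and 8.53 in proliferating WT cells. Replicate 4 overlapped the differentiating arrays in both genotypes. With it, the log2 changes were -1.82 in KO (adjusted p = 0.159) and -2.52 in WT cells (adjusted p = 0.0677); without it, -2.58 (adjusted p = 0.00024) and -3.37 (adjusted p = 5.6e-05). Orc1, the largest subunit of the origin recognition complex, was not well above background in differentiating cells of either genotype. Its signal was at least 2.44-fold lower there than in proliferating cells in KO (adjusted p = 0.0458) and at least 2.21-fold lower in WT cells (adjusted p = 0.0577; measured on 3 of the 4 proliferating arrays), where a bound sets the mean of the brighter group against the lowest signal that counts as above background, or the probe's own if higher. Cdc6, a loading factor that works with Orc1, was not well above background in differentiating WT cells and was at least 3.38-fold lower there (adjusted p = 0.121; measured on 3 of the 4 proliferating arrays; at least 5.37-fold without replicate 4). Orc6, a small subunit of the complex, changed least of the 5, with log2 changes of -0.74 in each genotype (adjusted p = 0.192 in KO and 0.201 in WT). Without replicate 4 all 5 licensing genes fell in each genotype.

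Of the 8 helicase genes, none passed in KO cells and 6 fell in WT cells (Mcm2, Mcm3, Mcm4, Mcm5, Mcm6 and Mcm10), with medians of -1.84 in KO and -2.51 in WT; without replicate 4 all 8 fell in each, with medians of -2.47 and -3.17. In KO cells Mcm6 had 11.74 and 11.44 in differentiating cells, against 13.47, 14.63, 14.06 and 11.72 in proliferating cells. In WT cells it had 9.93 and 9.88, against 13.89, 13.55, 14.15 and 10.93. In WT RNA both differentiating arrays lay below all 4 proliferating ones, in KO RNA replicate 4 lay among them, and the fitted log2 changes were -1.88 ± 0.73 in KO (SE, adjusted p = 0.107) and -3.23 ± 0.73 in WT cells (adjusted p = 0.0194). Mcm7, another subunit of the ring, changed by nearly the same amount in both genotypes, -1.52 ± 0.46 in KO (adjusted p = 0.0511) and -1.51 ± 0.46 in WT cells (adjusted p = 0.053). Cdc45, the helicase cofactor, stood at -1.54 in KO (adjusted p = 0.0987) and -1.62 in WT cells (adjusted p = 0.0879).

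Of the 8 polymerase and primase genes, 3 fell in KO cells (Pola1, Pola2 and Pole) and 5 in WT cells (the same 3 with Prim1 and Pole2). Pole, the catalytic subunit of polymerase epsilon, had log2 signals of 8.68 and 8.76 in differentiating KO cells, against 11.33, 11.71, 11.65 and 9.36 in proliferating KO cells, and fell by 2.29 ± 0.61 (SE, adjusted p = 0.0327). In WT cells it had 8.17 and 8.15, against 11.40, 11.37, 11.65 and 9.10, and fell by 2.72 ± 0.61 (adjusted p = 0.0183). The groups did not overlap, and replicate 4 was the lowest proliferating array in both genotypes. Pola1 and Pola2, subunits of polymerase alpha, fell by 1.48 and 1.51 in KO cells (adjusted p = 0.0417 and 0.0289) and by 1.53 and 1.67 in WT cells (adjusted p = 0.0382 and 0.0202). Pold1 and Pold2, subunits of polymerase delta, did not pass: they stood at -1.89 and -1.10 in KO cells (adjusted p = 0.0837 and 0.237) and at -1.98 and -0.88 in WT cells (adjusted p = 0.074 and 0.355). Pole2, an accessory subunit of polymerase epsilon, was not well above background in differentiating WT cells and was at least 3.65-fold lower there (adjusted p = 0.0382).

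Prim2, the large primase subunit, was the 1 gene of the 39 with a positive change, 0.78 ± 0.82 in KO (SE, adjusted p = 0.544) and 0.73 ± 0.82 in WT cells (adjusted p = 0.585). Its log2 signals were 9.79 and 10.10 in differentiating KO cells, against 10.46, 10.44, 8.20 and 7.56 in proliferating KO cells, and 9.86 and 9.75 in differentiating WT cells, against 10.54, 10.40, 8.06 and 7.29 in proliferating WT cells. Proliferating replicates 3 and 4 were low and replicates 1 and 2 high in both channels, so the arrays of 1 condition differed more than the conditions did. Replicates 3 and 4 are also the arrays with unequal Xist and Y-linked signal; its part in the split was not tested. Prim1, the catalytic primase subunit, had no such split: its signal was 10.17 and 10.14 in differentiating KO cells, against 11.43 to 11.82 on proliferating replicates 1 to 3 and 10.40 on replicate 4.

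The clamp, clamp loader and RPA genes had the smallest changes. Rfc4 and Rfc5, small subunits of the clamp loader, were the 2 of 8 that fell: by 1.43 and 1.92 in KO cells (adjusted p = 0.0412 and 0.0235) and by 1.68 and 2.04 in WT cells (adjusted p = 0.0247 and 0.019). Pcna, the clamp itself, had 12.98 and 12.77 in differentiating KO cells, against 14.48, 14.83, 14.69 and 12.95 in proliferating KO cells, and 13.04 and 12.20 in differentiating WT cells, against 14.36, 14.43, 14.31 and 12.68 in proliferating WT cells. Replicate 4 lay among the differentiating arrays in both genotypes, and the log2 changes were -1.36 in KO (adjusted p = 0.091; -1.80, adjusted p = 0.0033 without replicate 4) and -1.32 in WT cells (adjusted p = 0.101; -1.78, adjusted p = 0.0038). The 10 repeat spots of the Pcna probe gave log2 ratios with an SD of 0.042 to 0.093 within an array, against an SD of 0.45 between the 2 differentiating arrays. Rpa3, the smallest subunit of the single-strand binding protein, moved least of the genes that were lower: -0.12 ± 0.23 in KO (adjusted p = 0.758) and -0.16 ± 0.23 in WT cells (adjusted p = 0.66). Rpa3 and Prim2 were the genes that did not pass without replicate 4 either. Rfc2 and Rfc3, the other loader subunits, stood at -0.62 and -0.93 in KO cells (adjusted p = 0.154 and 0.123) and at -0.60 and -0.88 in WT cells (adjusted p = 0.174 and 0.147). Rpa1 and Rpa2, the larger RPA subunits, stood at -0.64 and -0.57 in KO cells (adjusted p = 0.203 and 0.393) and at -0.87 and -0.74 in WT cells (adjusted p = 0.0991 and 0.269).

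Among the genes of nucleotide supply, Rrm1 and Tyms fell in KO cells, and Rrm1, Rrm2, Tyms and Tk1 in WT cells. Rrm1, the large subunit of ribonucleotide reductase, had 10.82 and 11.07 in differentiating KO cells, against 13.48, 13.42, 13.08 and 12.39 in proliferating KO cells, and fell by 2.14 ± 0.33 (SE, adjusted p = 0.00501). In WT cells it had 10.43 and 10.61, against 13.41, 13.63, 13.08 and 12.22, and fell by 2.56 ± 0.33 (adjusted p = 0.0021). As for Gmnn, replicate 4 was the lowest proliferating array but lay well above the differentiating ones. Tyms, the thymidylate synthase, fell by 2.02 ± 0.50 in KO cells (SE, adjusted p = 0.0269) and by 2.24 ± 0.50 in WT cells (adjusted p = 0.0187). Dut, the dUTPase, stood at -1.38 in KO (adjusted p = 0.0965) and -1.26 in WT cells (adjusted p = 0.127). Tk1, the thymidine kinase of S phase cells, had the largest estimated change of the 39 in both genotypes. It had 8.11 and 8.80 in differentiating KO cells, against 12.28, 12.73, 12.22 and 9.38 in proliferating KO cells, and 7.02 and 7.30 in differentiating WT cells, against 12.52, 12.26, 11.77 and 8.19 in proliferating WT cells. The log2 changes were -3.20 ± 0.99 in KO (SE, adjusted p = 0.0557) and -4.02 ± 0.99 in WT cells (adjusted p = 0.0263), and -3.97 (adjusted p = 0.00029) and -5.03 (adjusted p = 8.3e-05) without replicate 4.

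Neither of the Okazaki fragment genes passed with all arrays: Fen1, the flap nuclease, stood at -1.57 in KO (adjusted p = 0.107) and -1.98 in WT cells (adjusted p = 0.0555), and Lig1, the ligase, at -1.91 (adjusted p = 0.0864) and -2.21 (adjusted p = 0.0564). Without replicate 4 both fell in each genotype. Of the histone genes, Asf1b, a chaperone of histones H3 and H4, fell by 2.65 ± 0.65 in KO cells (SE, adjusted p = 0.0256) and by 3.17 ± 0.65 in WT cells (adjusted p = 0.0135). Its signals were 8.41 and 8.19 in differentiating KO cells, against 11.31, 11.79, 11.43 and 9.29 in proliferating KO cells, and 7.35 and 7.46 in differentiating WT cells, against 11.41, 11.01, 11.34 and 8.53 in proliferating WT cells. The groups did not overlap in either genotype. Chaf1b, a subunit of chromatin assembly factor 1, fell in WT cells (-2.67, adjusted p = 0.0428) and stood at -2.07 in KO cells (adjusted p = 0.0913). Chaf1a, the largest subunit of the same factor, stood at -1.69 in KO (adjusted p = 0.13) and -2.04 in WT cells (adjusted p = 0.0806).

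Both differentiating arrays lay below all 4 proliferating arrays for 21 of the 39 genes in KO cells, against 20.6% of all genes, and for 26 in WT cells, against 19.4%. Against proliferating replicates 1 to 3 alone, this held for 37 genes in KO cells (27.2% of all genes) and 37 in WT cells (26.1%). Replicate 4 was set aside through the low signal of these same genes, so the second count adds no support to the first. Of the 39 genes, 7 had several probes well above background, and all 14 of these probes had less signal in differentiating cells of both genotypes.

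**Figure D3:**
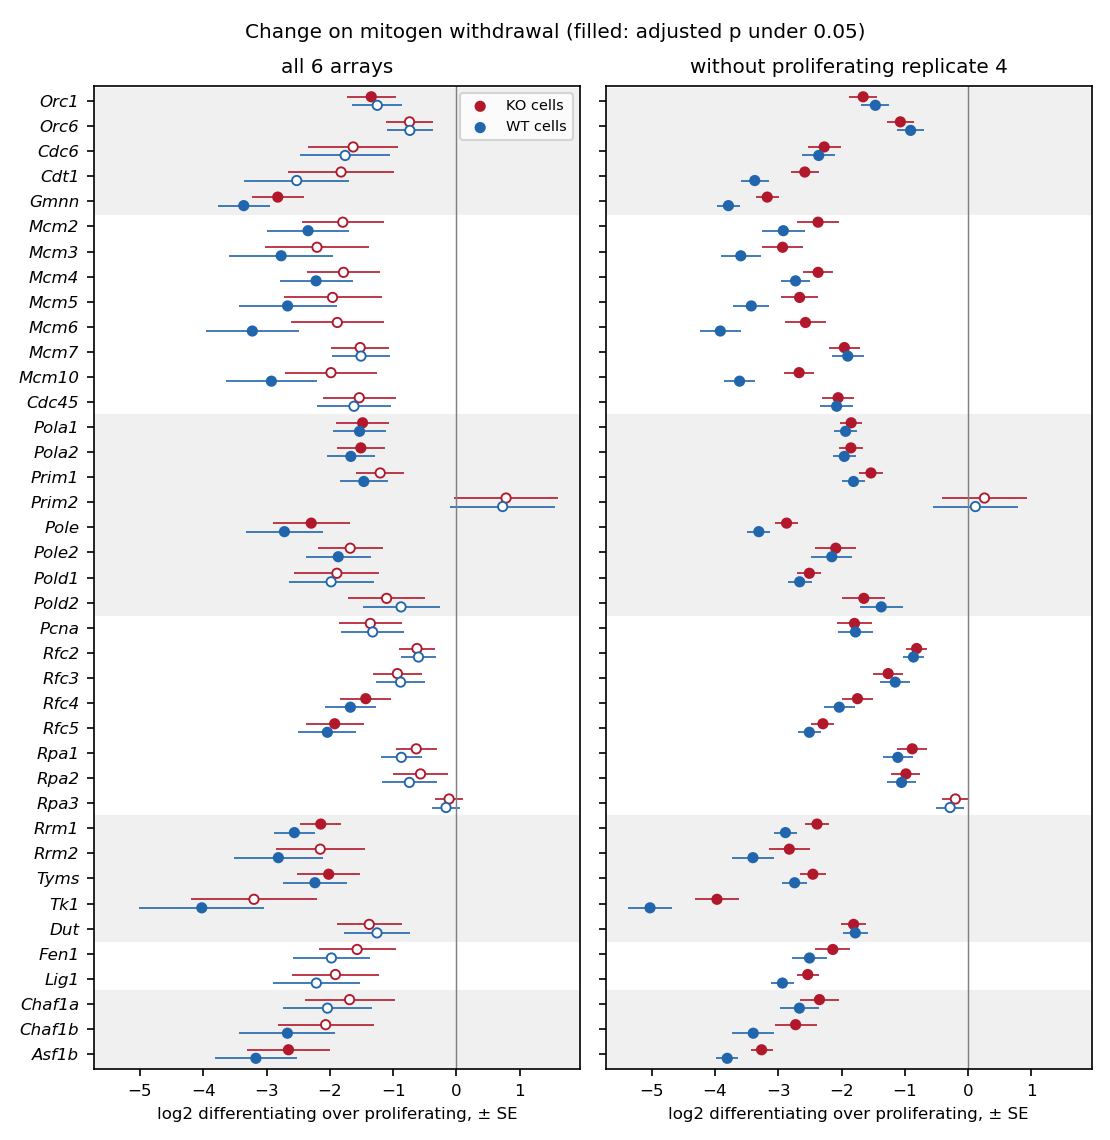
Fitted log2 change from proliferating to differentiating cells for each gene, KO cells above WT cells in each line, with SE bars and filled points where the adjusted p was under 0.05; grey bands separate the roles in the order of the text. With all 6 arrays (left) 10 points are filled for KO and 20 for WT, and without proliferating replicate 4 (right) 37 for each, with Prim2 and Rpa3 the open ones.

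The second comparison asks whether loss of Dnmt3a changes the replication genes once mitogen is gone. In differentiating cells 38 of the 39 genes had more signal in KO than in WT RNA, with a median log2 ratio of 0.42, against -0.01 over all genes. Of these, 4 rose (10.3%), where 2.18% of all 18044 genes tested were called higher in KO: Mcm6 and Mcm10 of the helicase, Cdt1 of the licensing factors and Asf1b of the histone chaperones; none fell. At an unadjusted p under 0.05 there were 20, all higher in KO, where 3162 of the 18044 genes passed, 1744 of them higher. By role, the median was 0.84 over the 8 helicase genes, 0.80 over the 3 histone genes and 0.20 over the 8 clamp, loader and RPA genes; the roles were not tested against each other. The highest single means were those of Mcm6, Tk1, Mcm10 and Cdt1. Without proliferating replicate 4, where 1.50% of all genes were called higher, Mcm6 (adjusted p = 0.0483) and Cdt1 (adjusted p = 0.0368) rose, while Mcm10 stood at an adjusted p of 0.0618 and Asf1b at 0.057. Without the dye term no gene of the 39 was called, though 562 of all genes were, 391 of them higher, so the 4 calls depended on that term. With either differentiating array left out, 1 array carried the whole comparison, so a count of calls there says nothing about these genes.

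Mcm6 (probe at chromosome 1, 128211735 to 128211794, build mm7), shown above with its E2F matches, had log2 KO over WT ratios of 1.81 and 1.55 on the differentiating arrays, against -0.42, 1.09, -0.09 and 0.79 on the proliferating ones. Both differentiating ratios lay above all 4 proliferating ones. The mean was 1.68 ± 0.18 (SD, n = 2), 3.21-fold higher in KO (limma, adjusted p = 0.0228). Mcm10, which joins the helicase as it is activated (chromosome 2, 4908072 to 4908131), had 1.20 and 1.00, against -0.41, 0.60, 0.00 and 0.43 on the proliferating arrays. It too was above all 4 of them, at 1.099 ± 0.15 (SD, n = 2, adjusted p = 0.0322).

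Cdt1 (chromosome 8, 121214998 to 121215057) had 1.24 and 0.72 in differentiating cells, a mean of 0.98 ± 0.37 (SD, n = 2, adjusted p = 0.0286), and Asf1b (chromosome 8, 82548543 to 82548602) had 1.06 and 0.73, a mean of 0.90 ± 0.23 (adjusted p = 0.0284). For both genes 1 or more proliferating arrays reached the lower of these ratios: Cdt1 had -0.27, 0.57, -0.05 and 0.87 there, and Asf1b -0.10, 0.77, 0.09 and 0.76. Gmnn, the inhibitor of Cdt1, had 0.43 and 0.69 (adjusted p = 0.0662), above its proliferating ratios of 0.03, -0.12, 0.02 and 0.15.

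The other ring subunits were unequal. Mcm2, Mcm3 and Mcm5 had mean ratios of 0.85 ± 0.06, 0.86 ± 0.08 and 0.84 ± 0.19 (SD, n = 2; adjusted p = 0.122, 0.0704 and 0.0819), and Mcm4 had 0.52 ± 0.30 (adjusted p = 0.192). Mcm7 was the 1 gene of the 39 below 0, with -0.18 and 0.11, a mean of -0.04 ± 0.21 (adjusted p = 0.946). Mcm6 and Mcm7 belong to the same ring, so its genes did not stand at 1 common ratio, but each ratio comes from 1 probe and the differences between genes were not tested. Pole stood at 0.51 and 0.61 (adjusted p = 0.0706), and Pola1 at 0.49 and 0.48 (adjusted p = 0.0891). Of the nucleotide enzymes, Tk1 had 1.09 and 1.50 (mean 1.30 ± 0.29, SD, n = 2, adjusted p = 0.0925), the second highest mean of the 39, and Rrm2 0.74 and 0.83 (adjusted p = 0.128). Dut stood at 0.10 and 0.17 (adjusted p = 0.749). Orc1 was not well above background in differentiating cells of either genotype, and Cdc6 and Pole2 were not in WT; Cdc6 was at least 1.23-fold higher in KO (adjusted p = 0.424). For Pole2, whose KO signal was above background on 1 of the 2 arrays, the bound was 1.29-fold (adjusted p = 0.466).

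**Figure D4:**
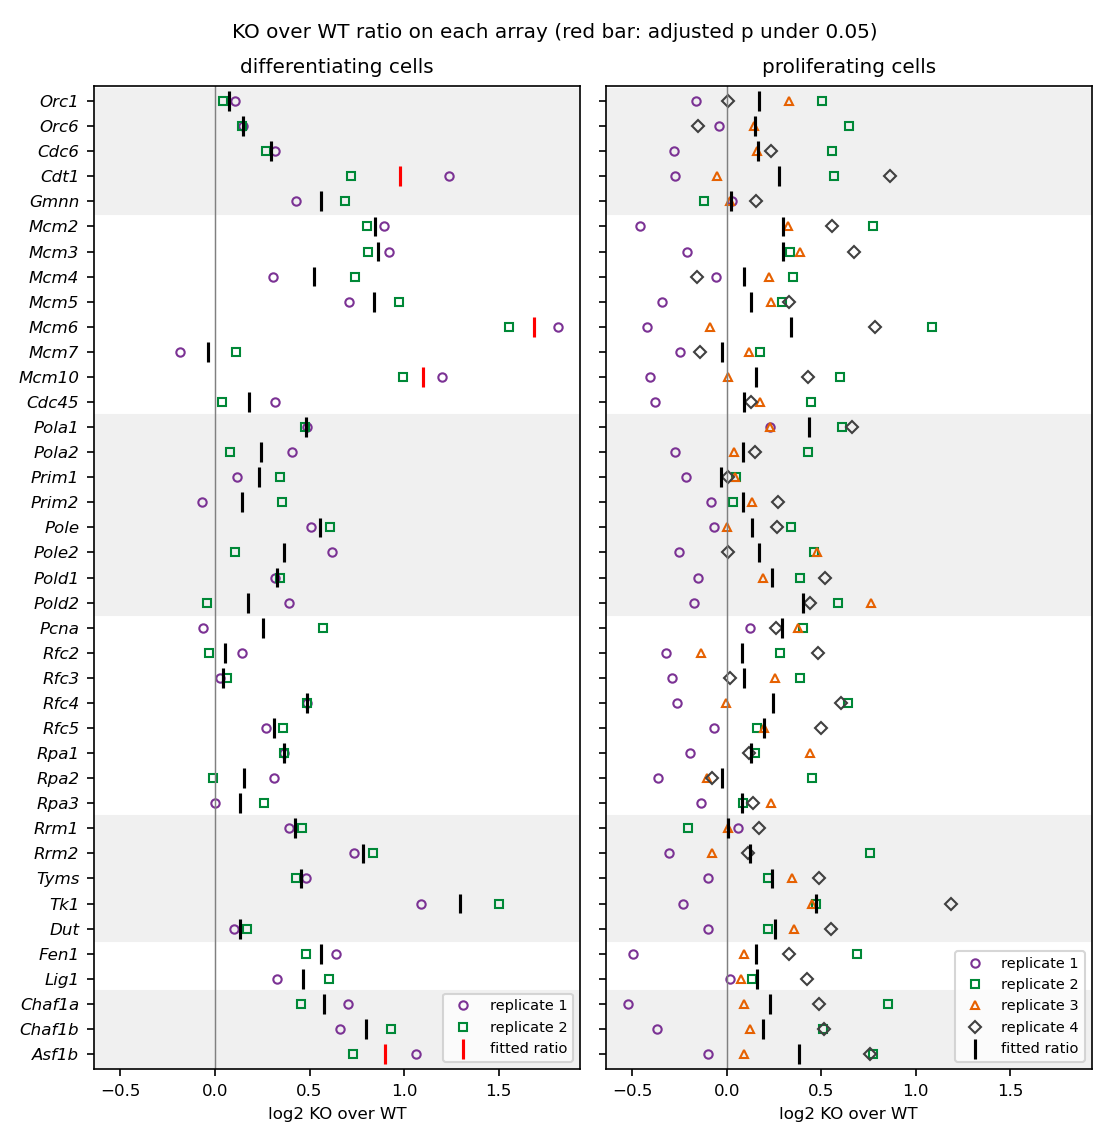
Log2 KO over WT ratio of each gene on each differentiating (left) and proliferating (right) array, with the fitted ratio as a vertical bar, red where the adjusted p was under 0.05. Points right of 0 are higher in KO: on the left nearly all lie there, with Mcm6 at 1.81 and 1.55, and on the right replicate 1 lies mostly left of 0.

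**Figure D5:**
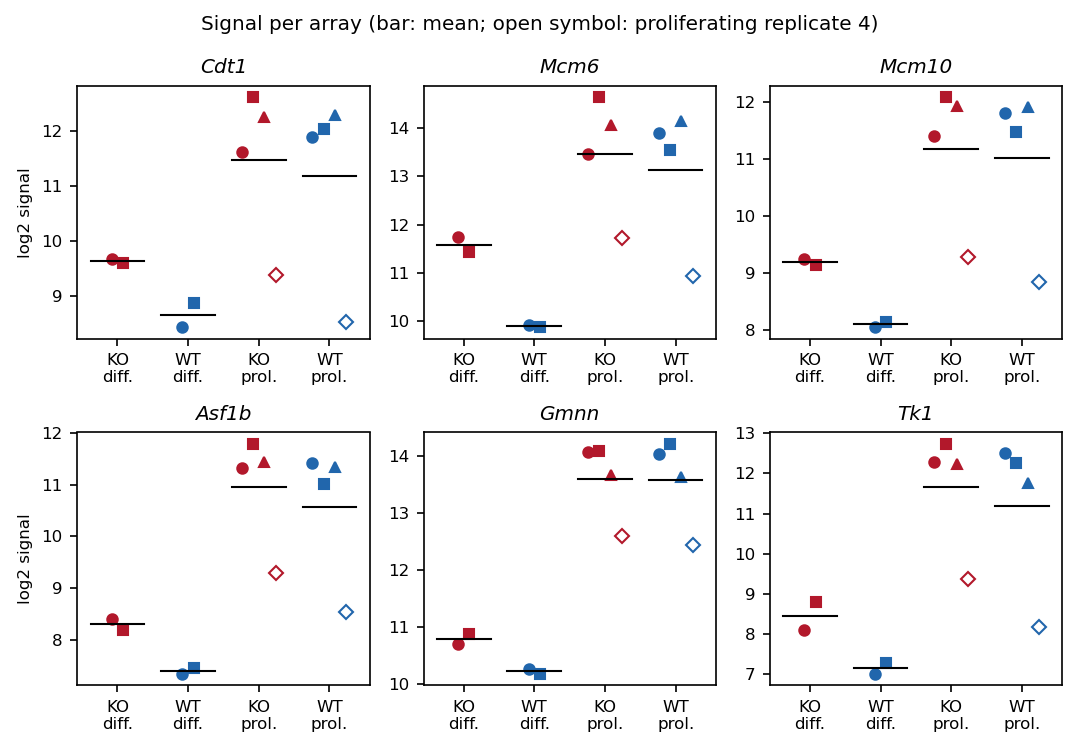
Log2 signal per array of the 4 genes that rose in differentiating KO cells and of Gmnn and Tk1, in KO and WT differentiating cells and then in KO and WT proliferating cells; shapes are replicates 1 to 4, bars are means and each panel has its own axis. In all 6 panels the KO signal exceeds the WT signal in differentiating cells, and the open symbol of proliferating replicate 4 lies below replicates 1 to 3.

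The third comparison, KO against WT in proliferating cells, gave no call among the 39 genes, where 0.970% of all genes passed in either direction. At an unadjusted p under 0.05 (limma) there were 5, all higher in KO, against 2878 of all 18044 genes, 1654 of them higher. Counted in either direction the 39 had a smaller share than all genes, and counted upward a larger one. The count among the 39 was 21 without replicate 1, where 3616 of all genes passed, and 17 with median centring, where 2297 did. The ratios leaned upward but were small: 36 of 39 were above 0, with a median log2 ratio of 0.16 and a range of -0.03 to 0.47. The median was 0.28 without replicate 1, 0.099 without replicate 2 and 0.26 with median centring. Leaving out proliferating replicate 4 gave again no call, where 0.205% of all genes passed, with a median of 0.17 and 2 genes at an unadjusted p under 0.05, where 2673 of all genes were. The arrays were unequal: the median over the 39 genes was -0.21, 0.43, 0.15 and 0.33 on proliferating replicates 1 to 4, and 5, 37, 33 and 35 of the genes were above 0. On the differentiating arrays the medians were 0.39 and 0.45, with 35 and 36 genes above 0, and on all 6 arrays the median over all genes lay between -0.04 and 0.02. The dye of KO RNA alternated over these arrays, and the fit holds a term for it.

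Pola1, the catalytic subunit of polymerase alpha, had the smallest p, with ratios of 0.23, 0.61, 0.23 and 0.66, all above 0 (mean 0.43 ± 0.24, SD, n = 4, adjusted p = 0.0821). Asf1b followed at 0.38 ± 0.45 (adjusted p = 0.125). Pold2, an accessory subunit of polymerase delta, had -0.17, 0.59, 0.76 and 0.44 (mean 0.40 ± 0.41, adjusted p = 0.297). Pcna had 0.12, 0.40, 0.38 and 0.26, above 0 on all 4 arrays (mean 0.29 ± 0.13, adjusted p = 0.301). Tk1 had the highest mean, 0.47 ± 0.58, from -0.23 on replicate 1 to 1.19 on replicate 4 (adjusted p = 0.358), and Prim1 the lowest, -0.03 ± 0.12 (adjusted p = 0.918); Mcm7 and Rpa2 were the others below 0.

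Whether the KO effect differs between the conditions was tested directly, as the differentiating minus the proliferating ratio. None of the 39 genes passed, where 0.0499% of all genes did (9 genes), and 10 had an unadjusted p under 0.05, all with the larger ratio in differentiating cells, where 2172 of all genes passed, 1184 of them in that direction. The median difference was 0.24, and 31 of the 39 were above 0. With median centring the median was 0.12 and 24 were above 0, and the median was 0.11 without proliferating replicate 1 and 0.12 without differentiating replicate 2. The largest was that of Mcm6, 1.34 ± 0.25 (SE, adjusted p = 0.155), followed by Mcm10 at 0.94 ± 0.19 (adjusted p = 0.162), Tk1 at 0.82 ± 0.37 (adjusted p = 0.46), Mcm5 at 0.71 ± 0.22 (adjusted p = 0.309), Cdt1 at 0.70 ± 0.16 (adjusted p = 0.192) and Gmnn at 0.54 ± 0.13 (adjusted p = 0.217). Without replicate 4, Mcm6 stood at 1.35 (adjusted p = 0.264) and none of the 39 or of all genes passed (limma; 11 of the 39 and 2012 of all genes at an unadjusted p under 0.05). Both differentiating ratios lay above all 4 proliferating ratios for 10 of the 39 genes, against 9.51% of all genes: Gmnn, Mcm2, Mcm3, Mcm5, Mcm6, Mcm10, Prim1, Pole, Rrm1 and Chaf1b. A fall that passed in WT and not in KO cells, as for 5 of the ring genes and Mcm10, is thus not shown to differ between genotypes.

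Other genes of DNA replication and repair, 57 measured of 58 listed, were also lower on withdrawal for the most part. Of them 18 fell in KO and 24 in WT cells, with medians of -1.002 and -1.03, and 41 and 39 fell without replicate 4; no test set this list against the 39 genes. Dbf4, the activator of the Cdc7 kinase, fell by 2.32 in KO and by 2.37 in WT cells (adjusted p = 0.00823 and 0.00702). Uhrf1, which brings Dnmt1 to new DNA, fell by 2.81 in KO and by 3.81 in WT cells (adjusted p = 0.0204 and 0.00647), and Gins4, a subunit of the GINS helicase cofactor, by 0.61 and 0.88 (adjusted p = 0.0168 and 0.00374). In differentiating cells their median KO over WT ratio was 0.12, and Uhrf1 alone rose (1.32 ± 0.18, SE, adjusted p = 0.0281). Brca1 stood at 0.99 (adjusted p = 0.0676).

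Of 30 mitosis genes, 20 rose in differentiating KO cells, with a median of 1.07 (17 without replicate 4), among them Aurka, a spindle kinase, at 1.42 (adjusted p = 0.0125) and Cdc20, which starts anaphase, at 2.19 (adjusted p = 0.0131); the difference between the lists was not tested. On withdrawal 29 fell in KO cells and 28 in WT cells, with medians of -2.68 and -3.64, and 29 in each without replicate 4. Of 26 genes of the switch from G1 to S phase, Ccna2, the cyclin A gene (1.63, adjusted p = 0.0181), and E2f2, an activating E2F factor (1.86, adjusted p = 0.0262), rose in differentiating KO cells. Cdk6, a cyclin D dependent kinase, rose in proliferating KO cells (1.80, adjusted p = 0.0109) but not in differentiating ones (0.08, adjusted p = 0.792), and the difference itself passed (-1.72, adjusted p = 0.0432; no gene passed without replicate 4). Of 7 cyclin-dependent kinase inhibitors, Cdkn1c rose (1.42, adjusted p = 0.0203) and Cdkn1b fell (-0.69, adjusted p = 0.0477) in differentiating KO cells; without replicate 4 none of the 7 fell and 1 rose.

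Markers of other cell types also differed between KO and WT RNA in differentiating cells, and the oligodendroglial ones in proliferating cells too. The median log2 KO over WT ratio of the 12 oligodendroglial markers was 1.32 in proliferating cells (11 above 0) and 1.53 in differentiating cells (9 above 0). The summed signal of 12 oligodendroglial markers was 161273 to 199714 in KO and 60959 to 79615 in WT RNA, and Mog was not well above background in WT. The sum of 10 neuronal markers was 10366 to 11462 in KO and 22423 to 24555 in WT RNA, with Stmn2 and Gad1 not well above background in KO. The sum of 8 astrocyte markers was 89635 to 126934 in KO and 69732 to 86090 in WT RNA. The sum of 4 ependymal markers was 2429 to 4220 in KO and 1486 to 1571 in WT RNA, and 2 of the 4 rose in KO. The sum of 10 neural stem cell markers was 127820 to 128385 in KO and 172054 to 202519 in WT RNA. Their log2 ratios ran from -1.36 to 1.93, with 8 of the 10 below 0. None of them was called lower and 1 was called higher in KO, where 2.18% of all genes were called higher. The part of cell composition in the ratios of the replication genes was not tested.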

How the data were processed

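RNA of KO and WT cells was measured on 6 Agilent 2-colour arrays of design 014868, and 1 array gives 1 KO and 1 WT sample. Per the file headers, the authors extracted spot intensity with Agilent Feature Extraction 9.5.1.1; the deposited mean and local background signals, in linear intensity units, were the starting point. The deposited log10 ratios of the authors' value table equal the scanner's log10 ratio turned KO over WT, with each array's median at 0. From the intensities, background was corrected with normexp (offset 50) and dyes balanced by loess in limma 3.58.1 (R 4.3.3, statmod 1.5.0). Repeat spots were averaged, the brightest probe stood for a gene, and a gene was kept where a channel was well above background on at least 2 arrays. Of 41174 probes, 22951 were named through RefSeq by accession and 18223 kept the file's name; probe positions are those of build mm7.

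KO over WT was fitted on log2 ratios with a dye term and 3 residual degrees of freedom. Differentiating over proliferating cells was fitted on separate channels after Aquantile scaling, with 1 intraspot correlation of 0.765 for all genes and 7 residual degrees of freedom. These count both channels of an array, while the contrast lies between arrays. For genes whose channels move together more closely than that correlation, the p-values can be too small. The 39 genes were low in both channels of proliferating replicate 4, with medians of -2.03 in KO and -2.05 in WT RNA. The limit thus bears on their withdrawal p-values in both genotypes. All p-values are from limma, adjusted by Benjamini-Hochberg over all genes, with a threshold of 0.05. Code was tested on simulated data. The replication genes and all lists were chosen with earlier results of these data known. The genes with values per array were those of smallest p per comparison, those of highest and lowest ratio, and those of opposite sign. Slide was not fitted as a block, since each slide holds 1 condition. Alternatives tried were other signals, scaling, dye, filter, probe and array choices.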

Additional observations from a re-analysis of the deposited data

Results flagged for a closer look

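In groups of 4 arrays, a value was singled out where its gap to the nearest of the others exceeded Dixon's critical value, as a share of the range of the group. Of 118 groups, 28 met this. Chance gives about 1 in 20 for a single group, but the groups share the same arrays and are not independent, so that rate does not apply to the count. Of the 28 values, 26 were log2 signals on proliferating replicate 4, each the lowest of its group. In KO cells they were Pole (9.36), Pold1 (10.47), Tyms (11.002), Tk1 (9.38), Dut (11.63) and Lig1 (11.12). In WT cells the licensing genes Cdc6 (6.36) and Cdt1 (8.53) and the helicase genes Mcm3 (10.01), Mcm4 (12.23), Mcm5 (9.35), Mcm10 (8.85) and Cdc45 (6.79) stood out. So did the polymerase and primase genes Pola1 (8.97), Prim1 (10.39), Pole (9.10), Pold1 (9.94) and Pold2 (8.71), the clamp and loader genes Pcna (12.68) and Rfc4 (9.80), and Rrm2 (9.33), Dut (11.08), Lig1 (10.70), Chaf1a (7.95), Chaf1b (8.87) and Asf1b (8.53). The other values were log2 KO over WT ratios on proliferating replicate 1, of Mcm5 (-0.34) and Prim1 (-0.21), each the lowest of its group.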

How the results depend on the processing

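The median KO over WT ratio in proliferating cells and both withdrawal medians kept their sign and moved by less than the spread between arrays under all alternatives run, and no replication gene was called in proliferating cells or for the difference of the KO effects. The fit of the differentiating arrays alone had no dye term, since such a term would leave 2 arrays no residual degrees of freedom. Its counts below are therefore not on the same footing as those of the fits with a dye term. With processed signals the differentiating median came to 0.47, and it ran from 0.28 to 0.56 with 1 array left out. The replication genes called higher there numbered 0 without the dye term (17 at an unadjusted p under 0.05, and 562 of all genes called), 13 with the differentiating arrays fitted alone, and 0 to 7 with 1 array left out. Called genes over the whole array in differentiating cells numbered 559, against 286 with median centring, 1590 with those arrays alone, 978 without proliferating replicates 3 and 4 (chosen after seeing the data, as was leaving out replicate 4 for all lists), and 0 to 539 with 1 array left out; without differentiating replicate 1 or 2, where limma called 0, 1295 and 1859 had an unadjusted p under 0.05. In proliferating cells they numbered 175, against 278 with processed signals, 101 without the filter, 1 with those arrays alone, and 1 to 177 with 1 array left out. With median centring 77.8% of the calls in proliferating cells were higher in KO, against 63.4%. For the difference they numbered 9, against 72 with processed signals, 24 without the dye term, 0 with median centring, without the filter, with the mean over probes or without replicates 3 and 4, and 0 with any 1 array left out (at an unadjusted p under 0.05, 1582, 2865, 2103 and 2122 genes under those 4 settings, and 920 to 2588 with 1 array left out).

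On withdrawal, 2763 genes were called in KO and 2700 in WT cells, against 1265 and 1011 without replicates 3 and 4, where 24 replication genes fell in KO cells. With 1 array left out, 272 to 4716 genes were called in KO and 206 to 3848 in WT cells, and 0 to 37 replication genes fell in each genotype. Replicate numbers are shared by 2 pairs of arrays, and the labels tie them to no shared animal. The KO over WT ratios of same-numbered arrays correlated at 0.15 for replicate 1 and 0.27 for replicate 2. As deviations from each condition's mean they correlated at -0.37 and -0.29. Same-numbered arrays carried KO RNA in opposite dyes, and with 2 differentiating arrays the deviations mirror each other, so these values cannot decide on a pairing. With the replicate block, 6339 genes were called in KO and 5880 in WT cells, 38 replication genes fell in each, and the difference of the KO effects gave 19 genes. In that withdrawal fit replicates 3 and 4, found only among the proliferating arrays, had terms of their own. The level of proliferating cells thus rested on replicates 1 and 2. The numbers of arrays, 2 differentiating and 4 proliferating, limit the precision.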
